A study of Mus musculus with 6 samples.

Results

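Protease inhibitor genes were followed across 3 groups of mouse pancreas. The set holds 10 genes of inhibitor families: the Kazal-type inhibitor Spink1, the whey acidic protein (WAP) genes Slpi and Wfdc2, the cystatin Cst3, and the serpins Serpina3n, Serpinb1a, Serpinb6b, Serpinb9, Serping1 and Serpinh1. The set was chosen with earlier results of these data known. It leaves out other genes of the same families, some of which are given below. All 10 were found by Ensembl identifier among the 22556 genes listed, and all 10 reached the mean of 1 TPM, a measure of transcript abundance scaled to gene length and to the same total in every library, that was required for testing. The mice were male wild-type C57BL/6, labelled as 8 weeks old (the methods of the study give 8 to 10 weeks), with 2 samples per group. The labels do not name the animal behind each sample, and each is called a mouse here. Saline mice received saline. Acute pancreatitis (AP) mice were injected intraperitoneally with caerulein, which overstimulates acinar cells, at 200 μg/kg every hour for 10 doses. The third group, polyI:C-pretreated AP mice (pretreated mice from here on), was given polyI:C, a synthetic double-stranded RNA that induces type I interferon, at 10 mg/kg before the same course of caerulein. The methods give 1 or 8 h for the interval between both agents and do not name the one used for the sequenced mice. The organ was removed 24 h after caerulein was first given, and mice given polyI:C alone were not analysed here. Each value is the level in RNA of whole pancreas, in which fewer cells of a type and less RNA per cell cannot be told apart.

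Protease inhibitors keep proteolysis in its compartment. In the pancreas, acinar cells make trypsinogen and other zymogens together with Spink1, which blocks trypsin that becomes active too early. Serpins trap their protease in a covalent complex and are used up in doing so. Clade B serpins act inside cells against proteases of leukocyte granules, while secreted serpins control acute-phase, complement and clotting proteases. Cystatins block lysosomal cysteine cathepsins, WAP proteins such as Slpi block neutrophil serine proteases, and Serpinh1 is a serpin by fold that works as a collagen chaperone and inhibits no protease.

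Each sample gave 1 library, and the labels put all 6 in a single lane of the sequencer. The depth is not given by TPM, and reads estimated from the spacing of low values ranged from 3297133 to 10826556 per library, with the 2 saline libraries lowest. One library stood apart. Pretreated replicate 2 held transcripts of small intestine, named here after their values were seen: Fabp1, a fatty acid-binding protein of enterocytes, was at 1430 TPM there and at no more than 3.35 TPM in the other 5 libraries. Apoa1 was at 269 TPM in this library and at no more than 0.462 TPM elsewhere. The differences between pretreated and AP mice are therefore also given without it for each gene of the set.

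Serpinb9 and Serpinb6b, clade B serpins of chromosome 13, had the largest rises of the set. The sequences before a RefSeq start of these 2 and of a neighbour are therefore shown. Each is the stretch of 250 bases before the RefSeq transcript start (GRCm38.p6), 5′ to 3′ on the strand of the gene, with capitals for the core of the interferon-stimulated response element, taken as a pair of TTTC stretches with any 2 bases between them. The window of Serpinb9 lies at chr13:33004291-33004540 on the plus strand, that of Serpinb6b at chr13:32965011-32965260 on the plus strand, and that of Serpinb6a, the clade B neighbour at the far end of the cluster, at chr13:34002795-34003044 on the minus strand. The gene coordinates from GENCODE start earlier for Serpinb9, at 33003250, so its window lies within that gene. For Serpinb6b they start at 32965209, inside the window.
Serpinb9: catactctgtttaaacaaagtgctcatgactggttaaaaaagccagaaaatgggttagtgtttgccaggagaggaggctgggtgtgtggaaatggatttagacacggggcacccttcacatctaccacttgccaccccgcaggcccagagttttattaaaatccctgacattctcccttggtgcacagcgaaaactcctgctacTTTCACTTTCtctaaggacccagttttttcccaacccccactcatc
Serpinb6b: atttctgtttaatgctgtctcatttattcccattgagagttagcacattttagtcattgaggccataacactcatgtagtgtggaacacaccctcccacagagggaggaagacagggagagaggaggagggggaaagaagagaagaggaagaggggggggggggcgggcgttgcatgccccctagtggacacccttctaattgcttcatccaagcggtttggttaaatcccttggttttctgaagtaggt
Serpinb6a: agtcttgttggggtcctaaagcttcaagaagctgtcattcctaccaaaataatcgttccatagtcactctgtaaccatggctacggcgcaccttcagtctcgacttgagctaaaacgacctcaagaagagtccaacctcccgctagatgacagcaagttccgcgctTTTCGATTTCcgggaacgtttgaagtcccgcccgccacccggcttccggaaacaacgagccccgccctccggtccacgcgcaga
The core was searched on both strands. It lay 46 to 37 bases before the RefSeq start of Serpinb9 and 84 to 75 bases before that of Serpinb6a. These letters were not in the window of Serpinb6b nor in that of a second annotated start of Serpinb6a. Of the 7 genes of the set with a window in the table, 1 (Serpinb9) held the core, and so did 2.977% of all 32851 windows. A gene was counted if any of its windows held a motif, while the shares are of single windows, so the units differ. None of the 7 held the gamma-activated site TTCNNNGAA, found in 7.02% of windows, the AP-1 site TGANTCA, found in 6.749%, or the heat shock element pair GAANNTTC, found in 6.694%. The match in Serpinb6a overlaps a gamma-activated site motif that lies 77 to 69 bases before the start.

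The first question was how the inhibitors differ between inflamed and healthy pancreas. In a limma fit of log2(TPM + 0.5), a gene passed when its p, adjusted by Benjamini-Hochberg over all genes tested, was 0.05 or less and its levels differed 2-fold or more. In AP against saline mice, 5 of the 10 genes passed as higher (Serpinb9, Serpinb6b, Serpina3n, Serpinb1a and Serpinh1), beside 18.2% of all 16814 genes tested, and none passed as lower, beside 4.03%. With no fold requirement the same 5 were higher, beside 33.0% of all genes, and Spink1 and Cst3 were lower, beside 7.39%, the first of them not under every setting. These 5 calls held when any single mouse was left out. With median-of-ratios scaling the same 5 passed as higher, while the counts over all genes went from 3053 higher and 677 lower to 1564 higher and 1226 lower. As a median, the 10 genes differed by 2.30 on the log2 scale, beside 0.45 for all tested genes. Such counts and medians describe the 10 chosen genes and not their families as a whole. Both AP mice lay above both saline mice for 6 genes, beside 52.6% of all genes, and below them for 2, beside 16.4%. In pretreated against AP mice, none of the 10 passed in either direction, beside 0.440% of genes higher and 0.404% lower. Without the fold requirement the count was still 0, beside 1.23% of all genes in either direction, and 6 of the 10 had an unadjusted p of at most 0.05, beside 13.9% of all genes. In pretreated against saline mice, 6 genes passed as higher, beside 16.9% of all genes, and 1 (Cst3) as lower, beside 2.97%. The mice of these groups did not overlap for 7 genes that were higher, beside 54.4% of all genes, and for 3 that were lower, beside 14.0%.

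**Figure D1:**
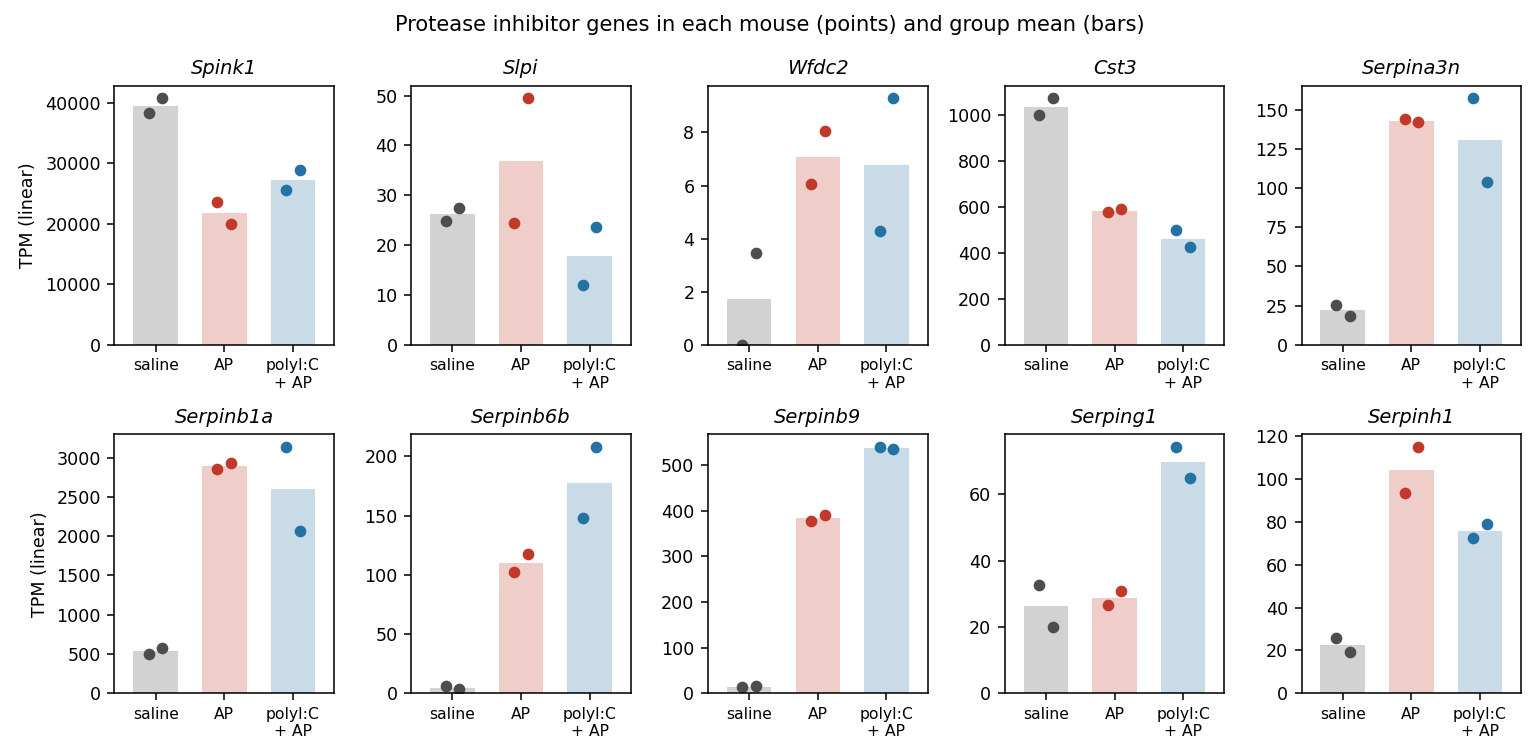
TPM (linear axis from 0) of the 10 protease inhibitor genes in saline, AP and pretreated (polyI:C + AP) mice; points are single mice and bars are group means (n = 2). Serpina3n, Serpinb1a, Serpinb6b, Serpinb9 and Serpinh1 lie above the saline mice in the AP mice, Spink1 and Cst3 lie below them, and Serping1 is high in the pretreated mice.

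TPM is scaled per length, so the levels of these genes can be set side by side. In saline mice Spink1 came first, followed by Cst3 and Serpinb1a. Serping1, Slpi, Serpinh1 and Serpina3n followed with overlapping values between 18.4 and 32.8 TPM, then Serpinb9, Serpinb6b and Wfdc2. In AP mice Serpinb1a stood above Cst3, with no overlap, and Serpinb9 stood above Serpina3n, Serpinb6b and Serpinh1. Spink1 alone held 95.9% of the summed TPM of the set in both saline mice and 84.9% and 81.9% in the AP mice. The sum of the other 9 genes was 1626 and 1763 TPM in saline mice, 4202 and 4380 TPM in AP mice, and 4644 and 3516 TPM in pretreated mice.

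Spink1 (ENSMUSG00000024503, chromosome 18, 43728082 to 43737557, minus strand, mm10), the trypsin inhibitor of the acinar zymogen granule, was the second most abundant of all listed genes in saline mice. Its level was 38301 and 40740 TPM in saline mice, 23568 and 19872 TPM in AP mice, and 25577 and 28861 TPM in pretreated mice. Both AP mice lay below both saline mice, and both pretreated mice lay in between. The log2 fold change in AP against saline mice was -0.87 ± 0.13 (SE, adjusted p = 0.00269), which is under 2-fold. The adjusted p was above 0.05 in a fit of only these 4 mice (0.192) and without AP replicate 1 (0.0776), AP replicate 2 (0.186) or pretreated replicate 2 (0.127). With median-of-ratios scaling it was -1.30, and with genes above 1% of a library left out of the scaling it was -1.08, and Spink1 then passed as lower (beside 7.32% of all genes with median-of-ratios scaling). The difference between pretreated and AP mice was 0.33 ± 0.13 (adjusted p = 0.346, and 0.24 without pretreated replicate 2) and did not pass. In pretreated mice Spink1 ranked first among all listed genes, which hold only 6 of the 16 acinar markers named.

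Of 18 named pancreatic serine proteases, 9 were listed and 9 were tested. In AP against saline mice 4 passed as lower and 1 as higher, with a median log2 fold change of -0.72. Ctrc, the chymotrypsin C that degrades trypsinogen, was at 1742 and 1677 TPM in saline mice and 194 and 167 TPM in AP mice (log2 fold change -3.25 ± 0.11, adjusted p = 2.12e-05). Its fold change was larger in size than that of Spink1, a difference that was not tested. The trypsinogen gene Try10 was at 11529 and 9688 TPM in saline mice and 5873 and 3614 TPM in AP mice (-1.20 ± 0.23, adjusted p = 0.00608), and the call was lost without saline replicate 1 (adjusted p = 0.0633) or AP replicate 2 (-0.85). Klk1, a tissue kallikrein, and Cela3a, an elastase, also passed as lower, but neither call held when AP replicate 2 was left out. The gene that passed as higher, the trypsinogen-like 1810009J06Rik, is uncertain, as 67.56% of its 100-base stretches also occur elsewhere, mainly in Gm2663. None of the 9 passed in pretreated against AP mice, and 4 were lower at an unadjusted p of at most 0.05. Other trypsinogen genes, and 10 of the 16 acinar markers, were not analysed here, so no sum over the zymogens was formed. Of the 6 acinar markers listed, 4 passed as lower in AP mice. In pretreated against AP mice 3 passed as higher, the amylase gene Amy2a5 (1.48 ± 0.18, adjusted p = 0.0232) and the transcription factor genes Bhlha15 (1.73 ± 0.12, adjusted p = 0.00397) and Rbpjl (1.08 ± 0.15, adjusted p = 0.0335), and no gene of any kind passed in this comparison when either AP mouse or pretreated replicate 2 was left out. The summed TPM of the 6 markers was 99809 and 87738 in saline mice, 32240 and 21640 in AP mice, and 15109 and 11707 in pretreated mice, mostly from the granule protein gene Sycn, and the part of these markers in the level of Spink1 was not tested.

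Cst3 (ENSMUSG00000027447, chromosome 2, 148871722 to 148875692, minus strand), which encodes the secreted cathepsin inhibitor cystatin C, was at 1000.1 and 1073 TPM in saline mice, 578 and 589 TPM in AP mice, and 498 and 425 TPM in pretreated mice. The 3 groups did not overlap, with saline mice highest and pretreated mice lowest. In AP against saline mice the log2 fold change was -0.83 ± 0.11 (adjusted p = 0.00126), under 2-fold. It was -1.26 with median-of-ratios scaling and -1.04 without the most abundant genes in the scaling, and Cst3 then passed. In pretreated against saline mice it passed as lower, at -1.17 ± 0.11 (adjusted p = 0.000391), and it also passed without pretreated replicate 2 (-1.06, adjusted p = 0.0101). Against AP mice the difference of -0.34 ± 0.11 (adjusted p = 0.212, and -0.23 without pretreated replicate 2) did not pass.

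Cystatin C inhibits cysteine proteases. All 12 named cysteine cathepsin and legumain genes were tested, and in AP against saline mice 7 passed as higher and 5 did not pass. At an unadjusted p of at most 0.05 in the same fit, 9 of the 12 were higher and 1 was lower. Ctsl, a lysosomal cathepsin that can degrade trypsinogen, was at 1813 and 1482 TPM in saline mice, 12973 and 11957 TPM in AP mice and 13119 and 9899 TPM in pretreated mice. Ctsb, the cathepsin that can activate trypsinogen, was at 255 and 209 TPM in saline mice, 907 and 885 TPM in AP mice and 748 and 707 TPM in pretreated mice. Ctss, a cathepsin of antigen-presenting cells, was at 43.5 and 31.9 TPM in saline mice, 232 and 286 TPM in AP mice and 91.5 and 93.2 TPM in pretreated mice. It was the only one of the 12 to pass in pretreated against AP mice (-1.48 ± 0.18, adjusted p = 0.0217), and that call was lost when any mouse of either group was left out (adjusted p from 0.168 to 0.279). Lgmn, which encodes the asparaginyl endopeptidase legumain, had the largest rise in AP mice (log2 fold change 3.61 ± 0.37, adjusted p = 0.000583).

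A ratio of TPM within a mouse does not depend on how the library was scaled. The ratio of Cst3 to Ctsl was 0.552 and 0.724 in saline mice, 0.0445 and 0.0492 in AP mice, and 0.0379 and 0.0429 in pretreated mice. The ratio of Cst3 to Ctsb was 3.92 and 5.14 in saline mice, 0.637 and 0.665 in AP mice, and 0.665 and 0.601 in pretreated mice. The ratio of Cst3 to Ctss was 23.0 and 33.7, then 2.49 and 2.06, then 5.44 and 4.56. All 3 ratios were lower in AP mice than in saline mice, with no overlap. Between AP and pretreated mice the ratio to Ctsb overlapped, the ratio to Ctsl was lower in the pretreated mice, and the ratio to Ctss was higher. With 2 mice against 2, the smallest two-sided p of an exact permutation test is 0.333, so the ratios are given without a test.

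**Figure D2:**
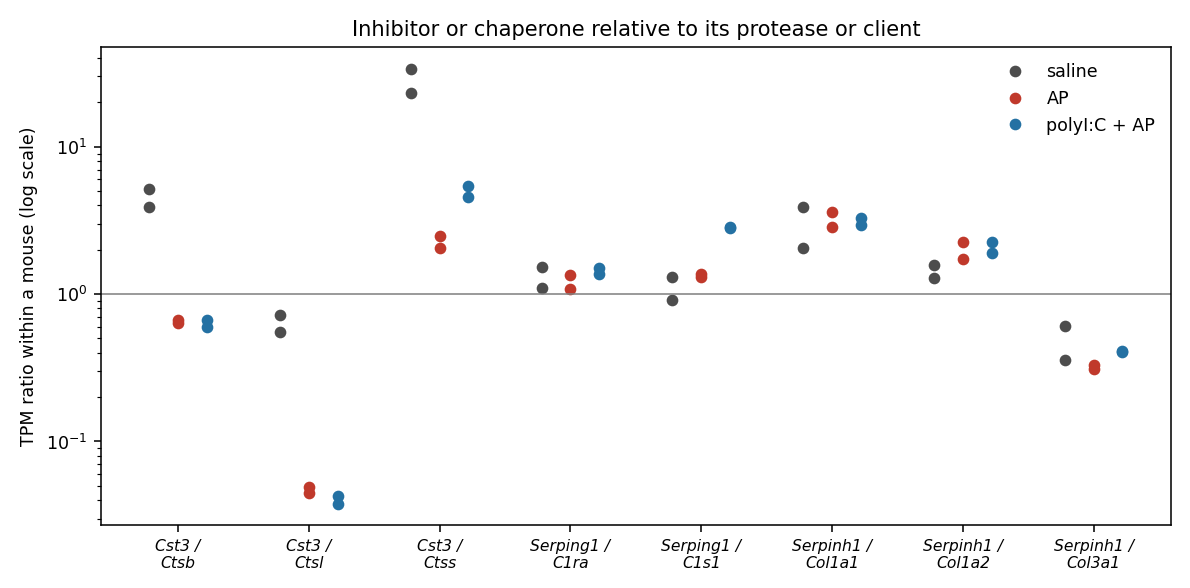
Ratio of TPM within each mouse (log axis, 1 marked by the line) of Cst3 to the cathepsins Ctsb, Ctsl and Ctss, of Serping1 to the complement proteases C1ra and C1s1, and of Serpinh1 to 3 collagen genes; points are single mice. The Cst3 ratios are lower in AP than in saline mice, while the ratio of Serping1 to C1ra stays between 1.08 and 1.52 and that of Serpinh1 to Col1a1 overlaps between all groups.

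Cstb and Cst7, other genes of the cystatin family, were higher in AP mice. Cstb, which encodes the cytosolic cystatin B, was at 192 and 255 TPM in saline mice, 1139 and 1117 TPM in AP mice and 892 and 842 TPM in pretreated mice (AP against saline 2.35 ± 0.14, adjusted p = 9.89e-05). Cst7, the cystatin F gene of leukocytes, was listed at 0 in both saline mice and at 2.37 and 2.25 TPM in AP mice. It passed as higher, but not when either saline mouse or either AP mouse was left out (adjusted p from 0.0558 to 0.0907).

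The WAP genes Slpi and Wfdc2 did not pass in any of the 3 comparisons. Slpi (ENSMUSG00000017002, chromosome 2, 164354070 to 164389095, minus strand), an inhibitor of neutrophil elastase at mucosal surfaces, was at 24.9 and 27.5 TPM in saline mice, 24.3 and 49.5 TPM in AP mice, and 12 and 23.7 TPM in pretreated mice. The 2 AP mice differed by more than the means of both groups did, and they lay on both sides of the saline mice. The log2 fold change of AP against saline mice was 0.40 ± 0.43 (adjusted p = 0.498). It turned to -0.02 with median-of-ratios scaling and to -0.10 without AP replicate 2. Both pretreated mice lay below both AP mice, with a difference of -1.02 ± 0.43 (adjusted p = 0.361), which was -1.50 without pretreated replicate 2, -1.52 without AP replicate 1, -0.54 without pretreated replicate 1 and -0.52 without AP replicate 2. Across the 6 mice the gene most like Slpi was Upk3b, a mesothelial marker, at 7.96 and 10.7, 8.49 and 24.2, and 5.62 and 14.9 TPM in the same order. Upk3b was picked by its values in these same mice, so the likeness is a description only. Next came Il17d and the fibroblast marker Pdgfra, both at a distance of 0.35 against 0.32 for Upk3b, measured as described below. Of 10 mesothelial markers 1, Krt19, which is also a duct marker, passed in AP against saline mice, and their part in the values of Slpi was not tested.

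Wfdc2 (ENSMUSG00000017723, chromosome 2, 164562413 to 164568510, plus strand), a secreted WAP protein of glandular and ductal epithelium, was low throughout. It was listed at 0 and 3.47 TPM in saline mice, at 6.07 and 8.07 TPM in AP mice, and at 4.27 and 9.29 TPM in pretreated mice. These values correspond to about 0 and 5, 15 and 25, and 13 and 35 estimated reads. Both AP mice were above both saline mice, but the 2 saline mice differed widely. The log2 fold change of 2.41 ± 0.96 (adjusted p = 0.0902) did not pass. It rested on the saline mice, at 0.92 (adjusted p = 0.321) without replicate 1 and 3.91 (adjusted p = 0.0137) without replicate 2, and it passed with the replicate number as a block (adjusted p = 0.0411). The pretreated mice overlapped the AP mice (-0.13 ± 0.96, adjusted p = 0.975), and this difference turned to 0.06 without AP replicate 2 and to 0.38 without pretreated replicate 1, and was -0.65 without pretreated replicate 2.

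Elane and Prtn3, neutrophil serine protease genes, were near the floor. Elane, neutrophil elastase, was listed at 0 in all 4 saline and AP mice and at 0.415 and 1.32 TPM in pretreated mice. Prtn3, proteinase 3, reached no more than 0.329 TPM in any mouse. Both transcripts are known to be made mainly by neutrophil precursors in bone marrow. Of the 14 neutrophil markers named, 11 were listed and 8 tested, and 4 passed as higher in AP against saline mice. None passed in pretreated against AP mice, where 2 were lower at an unadjusted p of at most 0.05. The summed level of the 11 listed markers was 20.2 and 5.80 TPM in saline mice, 96.0 and 82.8 TPM in AP mice, and 70.1 and 64.4 TPM in pretreated mice.

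Serpinb9, Serpinb6b and Serpinb1a, 3 clade B serpins, all rose in AP mice. Serpinb9 (ENSMUSG00000045827, chromosome 13, 33003250 to 33017957, plus strand), the intracellular inhibitor of granzyme B, was at 12.6 and 16.1 TPM in saline mice, 377 and 391 TPM in AP mice, and 540 and 536 TPM in pretreated mice. The 3 groups did not overlap, and mice within a group lay close together. AP mice were higher than saline mice by 4.71 ± 0.12 on the log2 scale (adjusted p = 1.27e-05). The further difference of 0.49 ± 0.12 between pretreated and AP mice had an unadjusted p of 0.00596 and did not pass after adjustment (adjusted p = 0.141), and it was 0.49 without pretreated replicate 2 too.

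Serpinb6b (ENSMUSG00000042842, chromosome 13, 32965209 to 32979067, plus strand), reported as an inhibitor of granzyme A, was at 5.71 and 3.71 TPM in saline mice, 102 and 117 TPM in AP mice, and 148 and 208 TPM in pretreated mice. Again the groups did not overlap. AP and saline mice differed by 4.43 ± 0.23 on the log2 scale (adjusted p = 6.48e-05). The difference was 0.67 ± 0.23 in pretreated against AP mice (adjusted p = 0.265), and it was 0.43 without pretreated replicate 2. The ratio of Serpinb6b to Serpinb9 was 0.453 and 0.231 in saline mice, 0.271 and 0.30 in AP mice, and 0.273 and 0.388 in pretreated mice, so the 3 groups overlapped.

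Serpinb1a (ENSMUSG00000044734, chromosome 13, 32842092 to 32851185, minus strand), an intracellular inhibitor of neutrophil elastase, proteinase 3 and cathepsin G, was the most abundant serpin of the set in every mouse. Its level was 498 and 582 TPM in saline mice, 2849 and 2937 TPM in AP mice, and 3138 and 2065 TPM in pretreated mice. The AP mice lay well above the saline mice (log2 fold change 2.42 ± 0.20, adjusted p = 0.000253), and the pretreated mice lay on both sides of them (-0.18 ± 0.20, adjusted p = 0.746). Without pretreated replicate 2 this last difference turned to 0.12. The mean level of Serpinb1a in AP mice was 5.36 times that in saline mice, against 26.8 times for Serpinb9 and 23.3 times for Serpinb6b.

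These genes belong to a cluster in which the other members behaved unevenly. Between Serpinb1a and Serpinb6a, over 1160703 bases, 10 genes were listed, 9 of them serpins. Serpinb6a, an inhibitor of cathepsin G, was at 43.6 and 59.7 TPM in saline mice, 318 and 355 TPM in AP mice and 349 and 301 TPM in pretreated mice (AP against saline 2.71 ± 0.16, adjusted p = 9.9e-05). Serpinb1c, Serpinb9b, Serpinb1b, Serpinb9e and Serpinb6c did not exceed 2.84 TPM in any mouse. The listed serpins of this cluster that passed were thus Serpinb1a, Serpinb6b, Serpinb9 and Serpinb6a, which shared no 100-base stretch with another gene. The ratio of Serpinb9 to Serpinb6a was 0.289 and 0.269 in saline mice, 1.19 and 1.10 in AP mice and 1.55 and 1.78 in pretreated mice, so these neighbours did not move by the same amount.

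**Figure D3:**
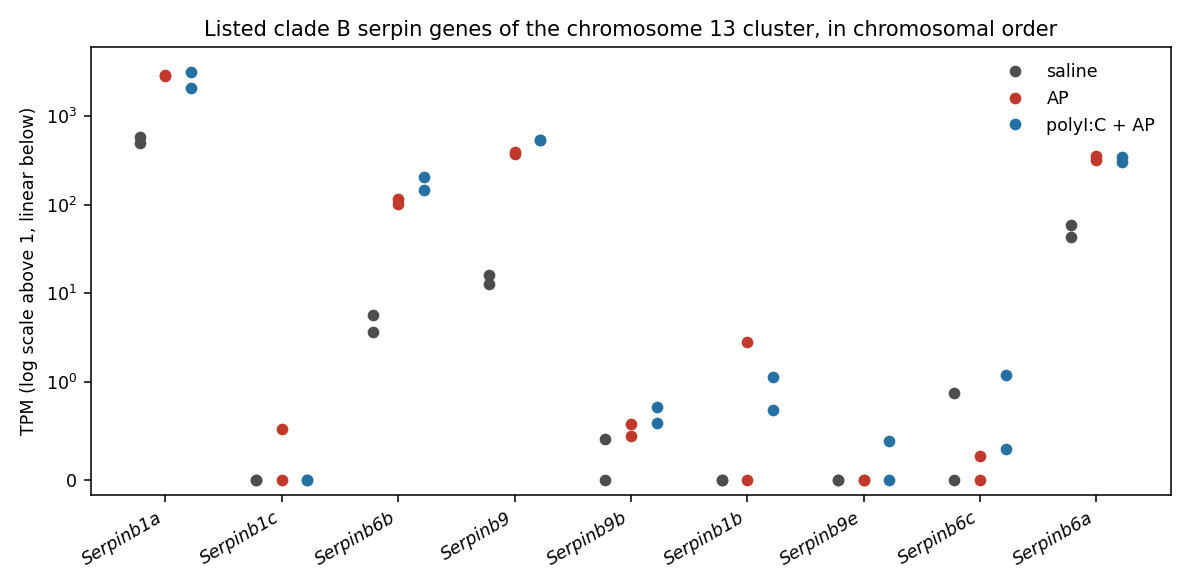
TPM (log axis above 1, linear below) of the 9 listed clade B serpins of the chromosome 13 cluster, in chromosomal order, for saline, AP and pretreated mice; points are single mice. Serpinb1a, Serpinb6b, Serpinb9 and Serpinb6a are higher in both caerulein groups, and the other 5 genes stay at or below 2.84 TPM.

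Of 24 other clade B serpins named, 11 were listed and 3 tested, and all 3 passed as higher in AP against saline mice with none in pretreated against AP mice. Beside Serpinb6a they were Serpinb5, the non-inhibitory maspin, at no more than 0.263 TPM in saline mice and 3.86 and 3.91 TPM in AP mice, and Serpinb8. The call of Serpinb8 (1.20 ± 0.35, adjusted p = 0.0335) was lost with median-of-ratios scaling (0.85) and when any mouse was left out.

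Granzymes, the targets of Serpinb9 and Serpinb6b, were found mainly in the pretreated mice. Gzma was listed at 0 in all 4 saline and AP mice and at 26.9 and 47.0 TPM in pretreated mice, and it passed as higher against AP mice (adjusted p = 0.00371). That call was lost without either AP mouse or without pretreated replicate 2 (adjusted p from 0.110 to 0.127). Gzmb was listed at 0 in both saline mice, at 0.660 and 0.522 TPM in AP mice and at 4.57 and 3.85 TPM in pretreated mice, and did not pass against AP mice (adjusted p = 0.182). In AP mice, where Serpinb9 had reached 377 and 391 TPM, both granzymes were thus at or near 0. Of 14 lymphocyte markers 13 were listed and 5 tested, and none passed in AP against saline or in pretreated against AP mice, also at an unadjusted p of at most 0.05.

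Serpina3n and Serping1, the secreted serpins of the set, showed different patterns. Serpina3n (ENSMUSG00000021091, chromosome 12, 104406729 to 104414329, plus strand), an acute-phase inhibitor of leukocyte elastase and granzyme B, was at 25.6 and 18.4 TPM in saline mice, 144 and 143 TPM in AP mice, and 158 and 104 TPM in pretreated mice. It was higher in AP against saline mice by 2.70 ± 0.23 (log2, adjusted p = 0.000296). The pretreated mice lay on both sides of the AP mice (-0.16 ± 0.23, adjusted p = 0.821), with a difference of 0.14 without pretreated replicate 2. Only 0.2% of its 100-base stretches occur in another gene, Serpina3e-ps, although it belongs to a multigene family.

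Serping1 (ENSMUSG00000023224, chromosome 2, 84765387 to 84775444, minus strand), the C1 inhibitor that blocks C1r, C1s and plasma kallikrein, had a larger difference between pretreated and AP mice than the other genes of the set, except that Slpi differed more without AP replicate 1 or pretreated replicate 2. Its level was 32.8 and 19.9 TPM in saline mice, 26.7 and 30.9 TPM in AP mice, and 74.3 and 65.1 TPM in pretreated mice. Saline and AP mice overlapped, and both pretreated mice lay above all 4 of them. The AP and saline mice differed by 0.17 ± 0.24 on the log2 scale (adjusted p = 0.627), with a sign that turned under both other scalings. In pretreated against AP mice it was 1.26 ± 0.24, with an unadjusted p of 0.00141 and an adjusted p of 0.0706, so it did not pass. The difference was 1.36 without pretreated replicate 2 and 1.16 without AP replicate 1. It passed when the fit held only these 4 mice (adjusted p = 0.0404) and with voom on estimated reads (adjusted p = 0.0140). Against saline mice it passed (1.43 ± 0.24, adjusted p = 0.00418). That call was lost with median-of-ratios scaling, where the value was 0.98, and without pretreated replicate 1 (adjusted p = 0.0726).

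The C1 inhibitor acts on the products of C1ra and C1s1. C1ra was at 21.6 and 18.1 TPM in saline mice, 19.8 and 28.7 TPM in AP mice and 49.5 and 47.8 TPM in pretreated mice, with a difference of 1.02 ± 0.20 between the caerulein groups (adjusted p = 0.0764). C1s1 was at 25.2 and 21.9, 19.4 and 23.4, and 26.1 and 23.3 TPM in the same order, with a difference of 0.21 ± 0.17 (adjusted p = 0.665). The ratio of Serping1 to C1ra was between 1.08 and 1.52 in all 6 mice. The ratio of Serping1 to C1s1 was 1.30 and 0.910 in saline mice, 1.38 and 1.32 in AP mice, and 2.84 and 2.79 in pretreated mice. Of 12 named genes of the C1 complex and contact system, 9 were listed and 6 tested. The 3 that passed as higher in AP mice were C1qa, C1qb and C1qc, the C1q chains made by macrophages.

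Serpinh1 (ENSMUSG00000070436, chromosome 7, 99345376 to 99353239, minus strand), the collagen chaperone HSP47 of the endoplasmic reticulum, was at 26.0 and 19.4 TPM in saline mice, 93.8 and 115 TPM in AP mice, and 72.7 and 78.9 TPM in pretreated mice. The groups did not overlap, with AP mice highest. It was higher in AP against saline mice by 2.19 ± 0.18 (log2, adjusted p = 0.000251), and the difference of -0.45 ± 0.18 between pretreated and AP mice (adjusted p = 0.325, and -0.51 without pretreated replicate 2) did not pass.

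The collagens that Serpinh1 helps to fold rose in the same mice. Of 17 fibrillar and basement membrane collagens, all listed and 16 tested, 14 passed as higher in AP against saline mice and none passed in pretreated against AP mice, where 6 were lower at an unadjusted p of at most 0.05. Col3a1 was at 72.4 and 31.9 TPM in saline mice, 302 and 348 TPM in AP mice and 180 and 191 TPM in pretreated mice (AP against saline 2.74 ± 0.34, adjusted p = 0.00111). Col1a2 was higher by 1.70 ± 0.22 (adjusted p = 0.00129), and Col1a1 by 1.95 ± 0.37 (adjusted p = 0.00640, and 0.0913 or 0.0880 without AP replicate 1 or 2). The ratio of Serpinh1 to Col1a1 was between 2.05 and 3.90 in all 6 mice, with overlap between all groups. The ratio to Col1a2 was higher in AP mice, at 1.74 and 2.25, than in saline mice, at 1.28 and 1.59, and was 1.89 and 2.25 in pretreated mice. The ratio to Col3a1 was lower in AP mice, at 0.311 and 0.331, than in saline mice, at 0.359 and 0.607, and was 0.403 and 0.413 in pretreated mice. Of 14 fibroblast and stellate cell markers, 6 passed as higher in AP mice, 3 of them these collagens.

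**Figure D4:**
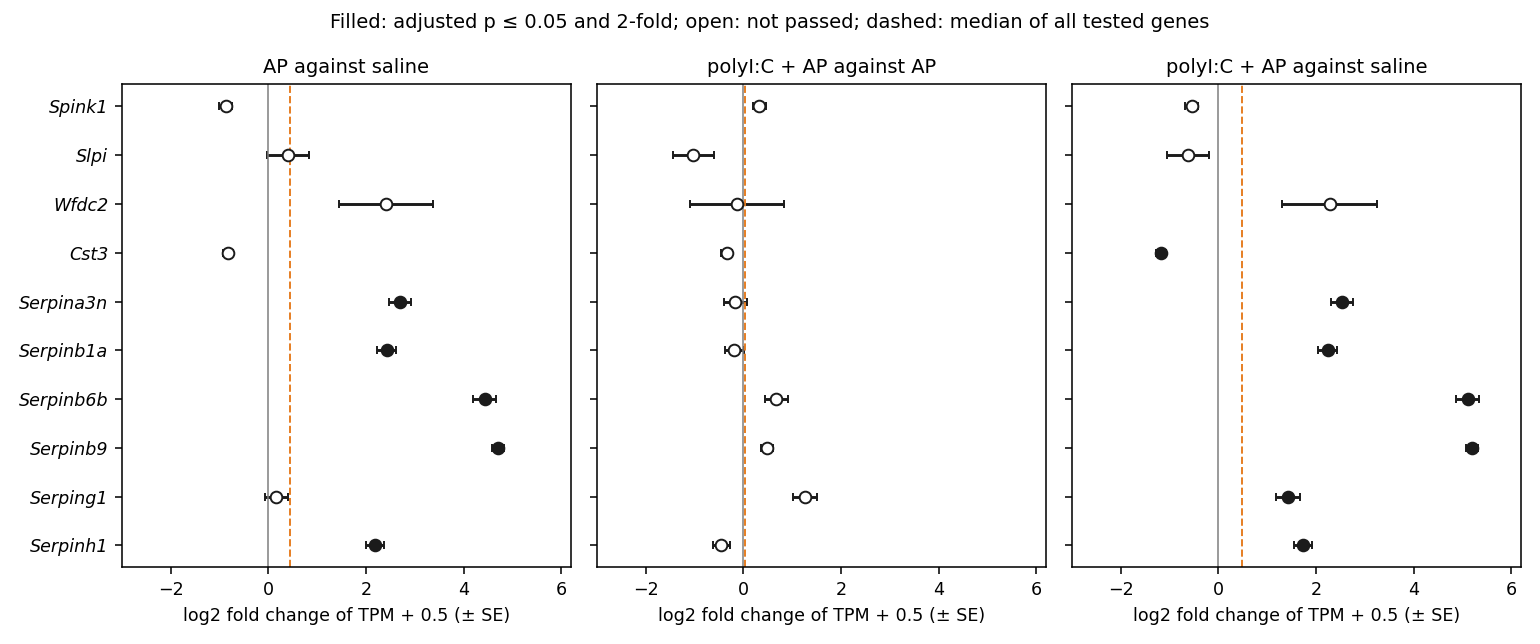
Log2 fold change of TPM + 0.5 (± SE of the limma fit, 2 mice per group) of the 10 genes in the 3 comparisons; filled points passed an adjusted p of 0.05 and 2-fold, the dashed line is the median of all tested genes. In AP against saline mice 5 genes passed, in pretreated against AP mice none did, and against saline mice Cst3 passed as lower.

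Over the whole set, the 5 genes that rose in AP mice also passed as higher in pretreated against saline mice, a comparison that shares the saline mice. The log2 fold change of Serpinb9 was 4.71 in AP and 5.19 in pretreated mice. That of Serpinb6b was 4.43 and 5.10, that of Serpina3n 2.70 and 2.54, that of Serpinb1a 2.42 and 2.24, and that of Serpinh1 2.19 and 1.73. Between both caerulein groups, 4 genes did not overlap with the pretreated mice higher (Spink1, Serpinb6b, Serpinb9 and Serping1), beside 27.7% of all genes. Another 3 did not overlap with the pretreated mice lower (Slpi, Cst3 and Serpinh1), beside 22.1%. Without pretreated replicate 2, none of the 10 genes passed against AP mice, and none of all genes tested did. Against saline mice the same 7 genes passed without that library.

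Interferon-stimulated genes, induced downstream of type I interferon, were highest in the pretreated mice. All 20 named genes of this kind were tested, 14 passed as higher in AP against saline mice, and 10 in pretreated against AP mice with none lower. Their summed level was 81.6 and 57.9 TPM in saline mice, 217 and 331 TPM in AP mice, and 1019 and 1020.4 TPM in pretreated mice. Rsad2, an antiviral interferon-stimulated gene, was at 3.91 and 2.97, 70.3 and 94.8, and 157 and 137 TPM in the same order. Rsad2 was the gene whose pattern lay nearest to that of Serpinb6b, followed by Akr1b8 and Serpinb9. In pretreated against AP mice the 20 interferon-stimulated genes had a median log2 fold change of 2.19. That of Serpinb6b was 0.67 and did not pass.

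Nearness of pattern was measured among 8495 protein-coding genes whose mean reached 10 TPM, by the root mean square difference of centred log2 values over the 6 mice, which is a description over libraries that share groups and scaling. Serpinb6b was nearest to Rsad2 (0.23), Akr1b8 and Serpinb9, and Serpinb9 to Pmm1 (0.10), Akr1b8 and Phlda3. Spink1 lay nearest to Pcbd1 (0.073), Fkbp2 and Bcl2l2, and Cst3 to Arfgef3 (0.056), Tst and Slc9a3r2. Serpina3n lay nearest to Tmem184c (0.10), Pvr and Sbno2, and Serpinb1a to Gm17622 (0.13), Btg2 and Vwa5a. Serping1 lay nearest to Cdkl1 (0.15), Gadd45b and C1ra, and Serpinh1 to Arpin (0.091), Cyba and 1810055G02Rik. The WAP genes had no close neighbour, with distances of 0.32 for Slpi to Upk3b and 0.55 for Wfdc2 to Glrx.

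Markers of some other cells moved with these groups, and their part in the inhibitor levels was not tested. None of the 12 endothelial, 11 islet and 7 adipocyte markers tested passed in AP against saline or in pretreated against AP mice. Of 14 macrophage and monocyte markers, 11 passed as higher in AP against saline mice and 7 as lower in pretreated against AP mice. Their sum was 658 and 448 TPM in saline mice, 2632 and 2984 TPM in AP mice, and 673 and 539 TPM in pretreated mice. In pretreated against saline mice 5 of these markers passed as higher and 2 as lower. Of 14 duct markers, 8 passed as higher in AP against saline mice and none in pretreated against AP mice, and their sum was 2490 and 2799, then 34067 and 36457, then 32346 and 25504 TPM.

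Among the other serpins, 32 were named, 26 listed and 14 tested, of which 2 passed as higher and 2 as lower in AP against saline mice. Serpini2, a serpin of the exocrine pancreas also called pancpin, was at 13304 and 14852 TPM in saline mice, 606 and 502 TPM in AP mice, and 368 and 502 TPM in pretreated mice. Its log2 fold change of -4.67 ± 0.17 (adjusted p = 2.42e-05) was of a size with those of Serpinb9 (4.71) and Serpinb6b (4.43) in the other direction. Serpina7, which encodes a thyroxine carrier and no inhibitor, and Serpina3m passed as higher, and Serpind1, heparin cofactor II, as lower. Each of these 3 calls was lost when AP replicate 2 was left out (adjusted p from 0.0533 to 0.218). Serpini1, neuroserpin, was lower in pretreated than in AP mice by less than 2-fold (-0.88 ± 0.12, adjusted p = 0.0308).

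Of 56 other Kazal, WAP, Kunitz and cystatin inhibitors named, 34 were listed and 21 tested, and 6 passed as higher and 1 as lower in AP against saline mice. Beside Cstb and Cst7 the largest rise was that of Wfdc18, on values below 8 TPM, and its call was lost under most other settings. Spint1, the Kunitz inhibitor of matriptase and named after its values were seen, was at 106 and 128 TPM in saline mice, 326 and 306 TPM in AP mice and 274 and 260 TPM in pretreated mice (1.44 ± 0.11, adjusted p = 0.000231). The gene that fell was Fetub, a cystatin-like fetuin, at 20.8 and 21.5 TPM in saline mice, 9.52 and 9.60 TPM in AP mice and 21 and 21.8 TPM in pretreated mice. The pretreated mice were at the level of saline mice, and the difference from AP mice just missed the threshold (1.12 ± 0.19, adjusted p = 0.0514).

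Of 19 inhibitors of other classes, 18 were listed and 12 tested, with 3 higher and 2 lower in AP against saline mice. Timp1, the inhibitor of matrix metalloproteinases, was at 9.90 and 1.22 TPM in saline mice, 75.7 and 72.5 TPM in AP mice and 53.8 and 42.9 TPM in pretreated mice (4.14 ± 0.74, adjusted p = 0.00490, and 0.0814 or 0.0799 without AP replicate 1 or 2). Cast, the calpain inhibitor calpastatin, was higher by 1.64 ± 0.14 (adjusted p = 0.000300), and Pi15, peptidase inhibitor 15, by 1.66 ± 0.33 (adjusted p = 0.00749, and 0.053 without saline replicate 2 or 0.10 without AP replicate 2). Itih4 and Itih2, heavy chains of the inter-alpha-trypsin inhibitor family, had log2 fold changes of -2.30 ± 0.37 (adjusted p = 0.00340, and 0.0701 without AP replicate 2) and -1.64 ± 0.24 (adjusted p = 0.00227). None of the 47 tested genes of these 3 lists passed in pretreated against AP mice, where 5 were higher and 5 lower at an unadjusted p of at most 0.05.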

How the data were processed

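RNA of whole pancreas was sequenced from 6 mice, 2 per group, with groups and replicate numbers taken from the labels. Per the methods of the study and the labels, the authors trimmed reads with Trimmomatic, aligned them to mm10 with STAR, counted them with htseq-count (HTSeq) and used DESeq2. The authors deposited TPM per gene, and the step to TPM, its annotation and the tool versions are not given in the sources used here. The methods name a stranded mRNA kit, and the labels also a ribosomal RNA depletion kit.

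Symbols, coordinates (GRCm38, equal to mm10) and exon lengths came from GENCODE M21, which matched 22490 of 22556 identifiers. Using limma 3.58.1 in R 4.3.3, a model with 1 coefficient per group and all 6 mice was fitted to log2(TPM + 0.5), over 16814 genes that averaged 1 TPM or more. Fold changes are on that scale, which understates the change of low genes. The prior variance of eBayes followed mean TPM times exon length, and p was adjusted by Benjamini-Hochberg over all tested genes. TPM keeps no read depth, so reads per library were estimated from the spacing of low values, of which 51.2% to 62.5% per library were whole within 0.1 read, and serve only as an indication and for a voom alternative. The genes of the set and the lists of other genes were chosen with earlier results of these data known. A gene of these lists is not reported here. From some of the other lists, up to 3 of the largest rises and falls among the called genes were named. Also named were known partners of the set, and for each gene of the set the 3 genes of the nearest pattern. The lists of cell markers are given mostly as counts and sums. As the labels do not say that duplicate samples came from separate animals, p-values measure only the spread between these samples, which may be technical. Promoter windows are from RefSeq and were present for 7 of the 10 genes. Pseudocount, filter, scaling, prior, threshold and the mice in the fit were each varied, and a block on replicate number was tried.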

Additional observations from a re-analysis of the deposited data

How the results depend on the processing

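With 2 mice per group, pretreated standing for polyI:C-pretreated AP, the adjusted p rests on variance shared between genes. The number of the 10 genes called in AP against saline mice was 5 to 7 over all settings, and in pretreated against saline mice 6 to 8. In pretreated against AP mice it was 0, or 1 (Serping1) in the fit on only these mice, with an unadjusted p, and with voom on estimated reads, an alternative chosen after the data were seen. When 1 mouse was left out it stayed at 0, but all genes together then gave 0 calls without AP replicate 1, AP replicate 2 or pretreated replicate 2. Leaving out a mouse gave 5 to 6 genes in AP against saline mice and 6 to 8 in pretreated against saline mice.

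Median-of-ratios scaling lowered the median log2 fold change of all genes in AP against saline mice from 0.45 to 0.05, and changed the calls from 3053 higher and 677 lower to 1564 higher and 1226 lower. Under it Slpi was at -0.021 and Serping1 at -0.26 in AP against saline mice. Serping1 was at -0.040 with genes above 1% of a library left out of the scaling and at -0.10 with voom. Signs also turned when 1 mouse was left out: Slpi ranged from -0.10 to 0.91 and Serping1 from -0.19 to 0.52 in AP against saline mice, and in pretreated against AP mice Wfdc2 ranged from -0.65 to 0.38, Serpina3n from -0.46 to 0.14 and Serpinb1a from -0.49 to 0.12. The cause was not tested.

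The replicate number as a block gave 6, 0 and 7 called genes in AP against saline, pretreated against AP, and pretreated against saline mice. It added Wfdc2 in the first and changed no other call of the 10 genes. Deviations from the group mean of same-numbered mice correlated between -0.00385 and 0.0351 over genes. This shows no general pairing by number but cannot exclude one, and the block is not given as a paired result. Slpi and Wfdc2 were higher in replicate 2 of every group. The saline libraries had the fewest estimated reads, which limits genes such as Wfdc2.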
